A study of Mus musculus with 9 samples.

Results

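The protein-coding genes of the cytosolic ribosome were followed through the culture of mouse lung pneumospheres, spheres that grow in suspension from dissociated embryonic lung. Members were all protein-coding genes of the count table whose symbols have the standard form of a small-subunit (Rps) or large-subunit (Rpl) ribosomal protein, together with Rpsa, Rplp0, Rplp1 and Rplp2. The rule found 84 genes among 27179 gene IDs and used no measured value. They were 31 core genes of the 40S subunit, 46 core genes of the 60S subunit, and 7 paralogs or processed copies (Rpl3l, Rpl7l1, Rpl10l, Rpl22l1, Rpl32l, Rpl39l and Rps27l). Fau, which encodes a 40S protein as a fusion to a ubiquitin-like sequence, does not match the rule and is described beside the members.

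Every library came from C57/B6 mouse lungs at stage E11.5, with no treatment and no genetic change named in the labels. Dissociated cells stood for a time on ordinary plastic, to which mesenchymal cells attach, and the cells that stayed in suspension were grown on low-attachment plates with FGF, EGF and heparin, in 5% oxygen and 10% CO2. They were passaged at day 3 and again at day 7. Sequencing of poly(A) RNA gave 3 libraries for each of days 3, 7 and 10. Nothing in the labels tells whether libraries of 1 day are separate litters or cultures, so p-values measure the spread between these samples, which may be technical. Library totals ran from 20716878 to 30466712 counts, and the members took 186377 to 328214 counts of each. Epithelial enrichment was not visible in the marker levels: the lung epithelium list (14 genes) summed to 1.33 to 2.72 CPM (TMM-scaled counts per 1e6 counts) in the 9 libraries, with Nkx2-1, Foxa1 and Shh at 0 counts in all of them and 3 of the 14 passing the filter, against 14634 to 48820 CPM for the 12 mesenchyme genes. The unit of replication here is the library, n = 3 per day, and errors of levels are SD.

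A ribosome joins 1 copy of each core protein, apart from the P stalk, with ribosomal RNA, and cells build subunits in the nucleolus with a large set of assembly factors. Ribosomal protein mRNAs are among the most abundant of growing cells, and many begin with a 5′ terminal oligopyrimidine (TOP) tract, a C followed by a run of C and T, through which the kinase mTOR and the RNA-binding protein Larp1 adjust their translation. Their mRNA levels and their translation are therefore separate layers, and only the first is measured by poly(A) RNA. These genes have also left many processed pseudogenes in mammalian genomes, copies that lie elsewhere and can be nearly identical to the mRNA.

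Start sites are shown first, since the TOP tract is the sequence feature best known for this family. RefSeq start regions (GRCm38.p6, the same assembly as mm10) were found for 64 of the 84 members. A C followed by at least 4 C or T, beginning within 5 bases of an annotated start, was present at 30 of the 64 (46.9%), against 21.2% of 27025 genes searched the same way. The first 4 windows below belong to genes described later as lower on day 10 and hold such a tract. The last 2, from Rplp0 and Rpl5, hold none, and Rpl5 was itself lower on day 7. The windows are examples and not a sample of the members. Of 30 tested members with a tract 11 were lower on day 10, and of 31 without a tract 5 were lower. Their median log2 changes from day 3 were −0.22 and −0.18, and 27.2% of all tested genes were called lower. The difference between members with and without a tract was not tested. Each window runs from 15 bases before the annotated start to 15 bases from it, on the gene's strand, with the tract in capitals.
Rpl28: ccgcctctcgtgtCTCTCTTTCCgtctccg
Rpl22l1: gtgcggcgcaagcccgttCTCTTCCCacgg
Rps6: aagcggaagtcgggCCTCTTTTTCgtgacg
Rplp2: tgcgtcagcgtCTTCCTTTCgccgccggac
Rplp0: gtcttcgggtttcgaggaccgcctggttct
Rpl5: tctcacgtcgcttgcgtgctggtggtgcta
The windows are chr7:4792950-4792979 (plus strand), chr3:28805493-28805522 (plus), chr4:86857353-86857382 (minus), chr7:141447636-141447665 (plus), chr5:115559452-115559481 (plus) and chr5:107900513-107900542 (plus), in that order. The missing tract of Rplp0 and Rpl5 concerns these annotated starts only. The start used for Rpl5 lies inside the gene's annotated span, which begins at chr5:107900508, a base outside the window shown.

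Other motifs were searched in the same promoters. In 300-base windows (250 before to 50 after the start, both strands), CCGGAAG, letters bound by ETS factors, occurred at 26 of 64 members (40.6%), against 9.93% of all genes. GGGCGG, the core of Sp1 sites, occurred at 39 (60.9%, against 38.2%), AAGATGGC, a YY1 motif, at 6 (9.38%, against 3.19%), and CACGTG, the E-box read by Myc, at 6 (9.38%, against 8.09%). CCGGAAG ends in the AAG that opens AAGATGGC, so those can overlap, and a match is a description of the sequence, not a bound site. Rps10 and Rpl38 carry the ETS letters and a tract close together, as the windows from 45 bases before to 15 bases from the start show, with both in capitals.
Rps10: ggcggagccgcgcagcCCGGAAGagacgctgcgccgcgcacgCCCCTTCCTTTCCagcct
Rpl38: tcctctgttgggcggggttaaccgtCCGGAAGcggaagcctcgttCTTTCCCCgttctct
They lie at chr17:27635230-27635289 (minus strand) and chr11:114668535-114668594 (plus strand). The start used for Rpl38 lies inside the gene's annotated span, which begins at chr11:114667818.

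The deposited levels of the core genes differed far more from each other than from day to day. Per kilobase of transcript and averaged over the 9 libraries, the 77 core genes ran from 1.76 CPM for Rpl39 to 983 CPM for Rplp1, a 559-fold range around a median of 96.6 CPM. The range was 430-fold to 969-fold within single libraries. The 10 core genes with the most counts held 48.1% of the counts of all members. The order of levels was stable: across the 77 genes, levels per kilobase on day 3 and on day 10 had a Spearman rho of 0.996, a description of the same genes in libraries of 1 design and not a test.

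The 5 highest members per kilobase were Rplp1, Rps15, Rpl8, Rps14 and Rplp0. Rplp1, an acidic protein of the P stalk that draws elongation factors to the ribosome, stood at 949, 861 and 969 CPM per kilobase on day 3, at 955, 1067 and 943 on day 7, and at 941, 1141 and 1020 on day 10. Rps15, a 40S protein of the subunit's head, averaged 877 CPM per kilobase, Rpl8, near the peptidyl transferase centre, 744, Rps14, of the 40S platform, 619, and Rplp0, the base of the stalk, 526. The order of the 5 was the same in each of the 9 libraries, though the range of each gene over the libraries overlaps that of the next.

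At the other end stood Rpl39, Rpl13 and Rps23. Rpl39, a very short protein that lines the peptide exit tunnel, had 25, 26 and 29 counts on day 3, 25, 28 and 31 on day 7, and 27, 18 and 32 on day 10. Rpl13, a 60S protein, averaged 4.31 CPM per kilobase, and Rps23, which sits at the decoding centre, 6.00. Each of these proteins is needed once per ribosome, like Rps3, a 40S protein at the mRNA entry site, which had 12361 to 24257 counts per library.

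Low levels went together with sequence shared with other genes. The main transcript of each member was cut into overlapping stretches of 50 bases, and the percent of stretches that also occur in transcripts of other annotated genes, pseudogenes included, was taken as shared. Of the 77 core genes, 76 had some shared stretch and 51 shared at least 50% of theirs. The 21 core genes that shared under 40% had a median level of 276 CPM per kilobase, the 22 with 40 to 70% had 130, and the 34 with 70% or more had 47.2. The Spearman rho between level and shared percent was −0.48 over the 77 genes, −0.51 among the 31 of the 40S subunit and −0.45 among the 46 of the 60S subunit. It was −0.39 with stretches of 36 bases and −0.65 with stretches of 100. The points share libraries and depth, and a transcript's length enters both measures. With the level in CPM, not divided by length, the rho over the 77 genes was −0.54.

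**Figure D1:**
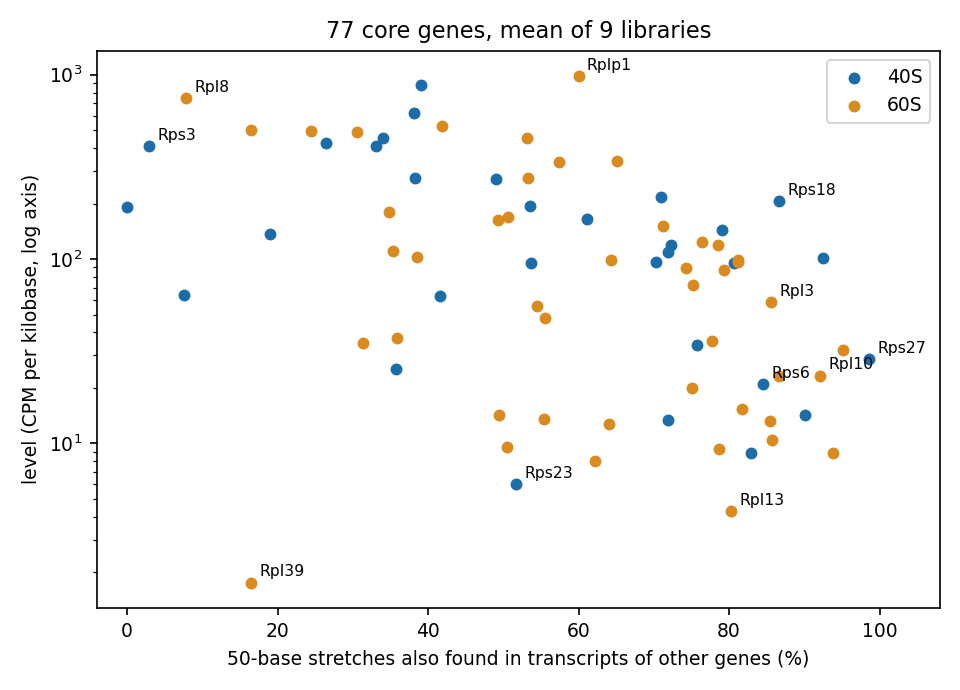
Level of the 77 core genes (CPM per kilobase, mean of 9 libraries, log axis) against the percent of 50-base stretches also found in transcripts of other genes. Blue points are 40S genes and orange points 60S genes. Genes that share 70% or more reach at most 218 CPM per kilobase, while Rpl39 is low at 16.5% shared.

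Single genes showed both the pattern and its exceptions. Rps3, with 2.96% shared, averaged 409 CPM per kilobase. Rps12, a 40S protein, shared 90.1% of its stretches with its closest copy and averaged 14.2. Rps18, a 40S protein of the head, shared 86.7% and still averaged 205, while Rpl39 shared 16.5% and was the lowest of all. How reads that fit several places were counted is not given in the sources used here, and its part in these levels was not tested. The level of a gene with many shared stretches is therefore the level of the reads assigned to it, which need not be that of its mRNA.

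Rps27 and its retrogene Rps27rt give the plainest case, shown by their first 60 coding bases beside those of the paralog Rps27l (GENCODE M21 transcripts, capitals mark bases that differ from Rps27).
Rps27: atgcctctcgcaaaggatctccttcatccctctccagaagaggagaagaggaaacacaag
Rps27rt: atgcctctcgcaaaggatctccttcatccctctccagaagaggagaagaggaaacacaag
Rps27l: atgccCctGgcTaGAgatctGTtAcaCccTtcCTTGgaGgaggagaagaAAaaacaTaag
Rps27rt does not differ from Rps27 in this stretch, and 98.6% of all 50-base stretches of Rps27 also occur in it. Rps27l differs at 18 of the 60 bases. Rps27 had 257, 171 and 239 counts on day 3, while the row of Rps27rt had 1493, 1270 and 1460. On day 10 the counts were 182, 257 and 299 for Rps27 and 977, 1488 and 2193 for Rps27rt. Each library thus put several times as many counts on the retrogene's row as on that of its parent.

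Rpl3, a core protein near the peptidyl transferase centre, has a similar relation to the pseudogene Rpl3-ps1, and its muscle paralog Rpl3l is set beside both (capitals mark bases that differ from Rpl3).
Rpl3: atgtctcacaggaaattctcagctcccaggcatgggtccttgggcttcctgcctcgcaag
Rpl3-ps1: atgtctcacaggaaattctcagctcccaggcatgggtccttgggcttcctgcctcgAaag
Rpl3l: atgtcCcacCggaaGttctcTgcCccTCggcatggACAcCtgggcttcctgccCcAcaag
Of the 50-base stretches of Rpl3, 81.5% occur in Rpl3-ps1, which differs at 1 of these 60 bases. Rpl3l differs at 13 of 60 and shares no stretch with other genes. Over the whole table, 34 rows had a ribosomal protein symbol with the pseudogene suffix -ps, and their counts came to 1.54% to 1.84% of the members' counts. Copies under other names, among them Rps27rt, are not in that sum.

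Together the members took about 1% of all counts. The 84 genes held 1.24%, 1.02% and 1.28% of the counts of the 3 libraries on day 3, 1.08%, 1.09% and 1.04% on day 7, and 0.900%, 1.03% and 1.05% on day 10. The means were 1.18% ± 0.137, 1.07% ± 0.0246 and 0.992% ± 0.0801 (SD, n = 3). The days overlap: day 3 replicate 2 lay below all 3 libraries of day 7 and below 2 of the 3 of day 10. That library gave 6.79% of its counts to a single unnamed gene ID, against at most 0.515% elsewhere, and without that ID its share was 1.098%. With that ID left out of every library the days no longer overlapped with day 3: shares were 1.098% to 1.28% on day 3, 1.04% to 1.09% on day 7 and 0.903% to 1.05% on day 10. As a percent of the TMM-scaled library size, the later days did overlap with day 3. Those shares were 1.06% to 1.20% on day 3, 1.03% to 1.09% on day 7 and 0.924% to 1.09% on day 10.

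**Figure D2:**
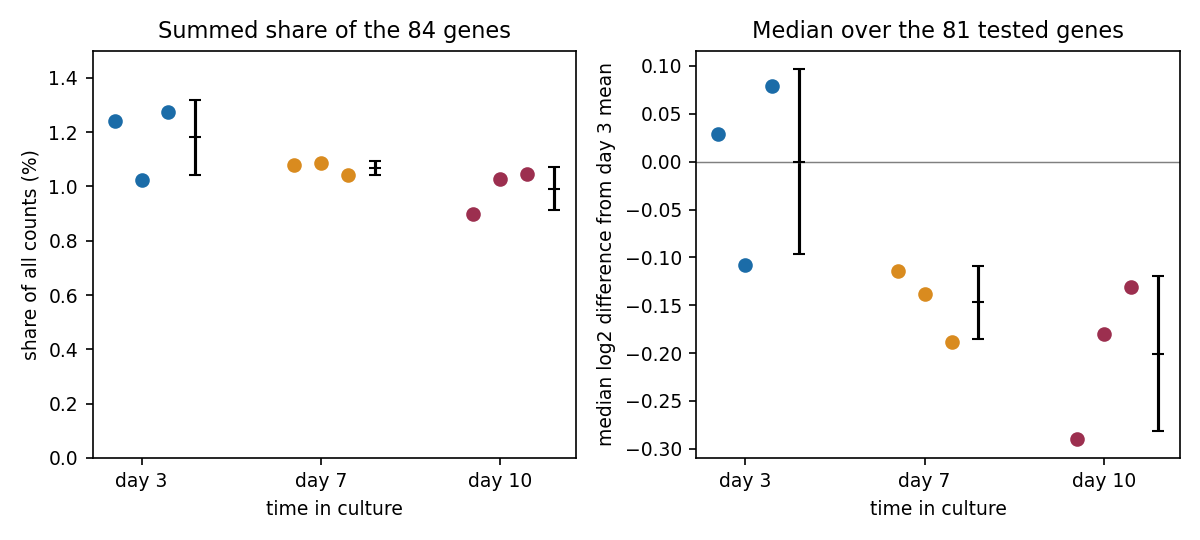
Left, share of each library's counts held by the 84 genes (%); right, median over the 81 tested genes of the log2 difference of their TMM-scaled CPM from the day 3 mean. Points are libraries (3 per day), bars the mean ± SD. Day 3 replicate 2 lies at 1.02% on the left and at −0.11 on the right, near the later days.

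By day 10 the change of ribosomal protein mRNAs was small and in 1 direction. Of 81 members that passed the filter on low counts, 23 fell and 0 rose against day 3 (edgeR's quasi-likelihood test, Benjamini-Hochberg adjusted p under 0.05 over 14940 genes), and 30 had an unadjusted p under 0.05, all of them lower. Among all tested genes 27.2% were called lower and 29.5% higher, so the 28.4% of members called lower is near the background. The median log2 change of the members was −0.21, with 75 of 81 below 0, against 0.00 over all tested genes. The TMM-scaled levels of days 3 and 10 did not overlap for 32 of 81 members, all lower on day 10. Over all tested genes 31.9% were separated downward and 32.5% upward.

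These counts depend on single libraries and on the scaling: they were 35 with library size alone and 15 with no filter beyond 1 count. Without day 3 replicate 3 the members called lower on day 10 were 9, without day 3 replicate 1 they were 11, and without day 3 replicate 2 and day 10 replicate 3 together they were 35. Over all tested genes, calls in both directions were 8473 in the main fit, 8361 with library size alone and 8484 with no such filter. They were 7469, 7328 and 7305 in the fits without those libraries, in the same order. The share of calls that were higher was 43.5% with library size alone, against 52.0% in the main fit. Because days 3 and 10 also differ in which cells are present, fewer cells of a kind and less RNA per cell cannot be told apart in these bulk libraries. The 10 erythroid genes summed to 1070 to 1271 CPM on day 3, 7.20 to 8.27 on day 7 and 1.34 to 2.96 on day 10, and 8 of 9 tested were lower on day 10, when Hba-a1, Hbb-bs and Slc4a1 were at 0 counts. The 10 neuron and glia genes summed to 161 to 212 CPM on day 3 and 15.95 to 20.3 on day 10, with 9 lower and 1 higher. The 12 mitosis genes went from 2683 to 2721 CPM to 542 to 1263, with all 12 lower. The 12 mesenchyme genes went from 14634 to 16390 CPM up to 43319 to 48820, with 9 higher and 3 lower. The part of these shifts in the ribosomal protein changes was not tested.

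**Figure D3:**
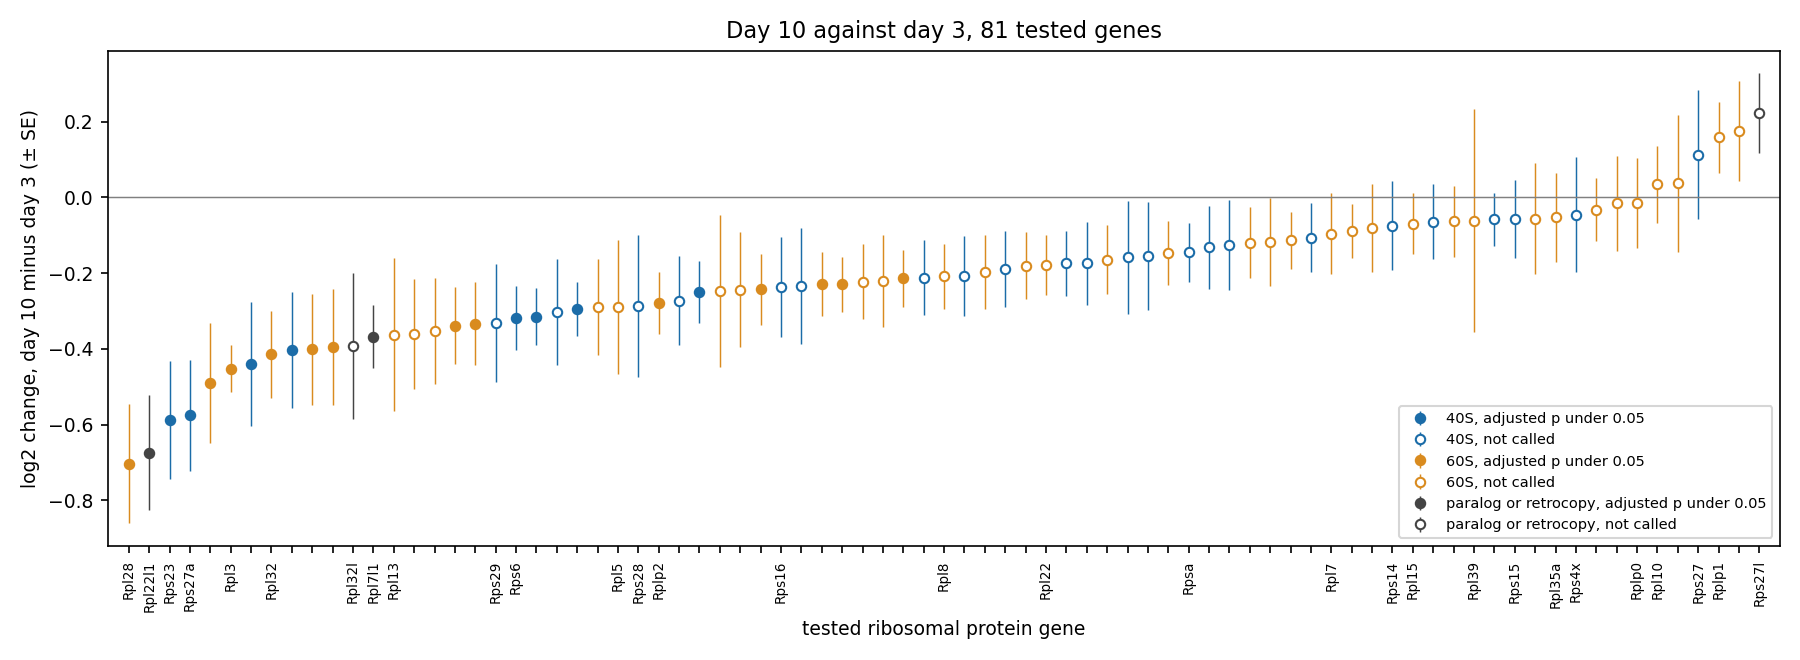
Log2 change from day 3 to day 10 (± SE) of the 81 tested ribosomal protein genes, sorted, with names under the genes the text describes by rule and Rpl28. Filled points have an adjusted p under 0.05; blue is 40S, orange 60S and dark grey a paralog or processed copy. The 23 filled points are all below 0, from Rpl28 at −0.70 to Rpl27a at −0.21.

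By subunit, on day 10, 8 of 31 genes of the 40S subunit and 13 of 46 of the 60S subunit were lower, with medians of −0.21 and −0.20. Of the 4 paralogs and copies tested, 2 were lower. Members in the lowest, middle and highest class of shared sequence had medians of −0.17, −0.21 and −0.23, and 6 of 23, 9 of 23 and 8 of 34 were called lower. The Spearman rho between this log2 change and the shared percent was −0.08 over the 77 core genes, so the relation of shared percent to level was not visible for changes. Between the log2 change and the level per kilobase of the same genes the rho was 0.30, a relation that was not tested.

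Among 40S genes, Rps23, Rps27a and Rps6 were lower on day 10 under each of the 20 other settings tried. Rps6 (Entrez 20104, chromosome 4, 86854099 to 86857367), the classic substrate of S6 kinase downstream of mTOR, stood at 21.9, 20.9 and 20.7 CPM on day 3, at 17.1, 17.2 and 17.4 on day 7, and at 18.2, 15.9 and 16.9 on day 10. All 6 later libraries were below all 3 of day 3, with a log2 change of −0.32 ± 0.08 (SE, adjusted p = 0.00902 in edgeR) to day 10. Rps27a, made as a fusion of ubiquitin to a 40S protein, went from 10.9, 9.07 and 12.4 CPM to 8.03, 6.68 and 7.02, again without overlap (−0.58 ± 0.15, adjusted p = 0.00736).

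Rps23, which helps to monitor codon pairing at the decoding centre, went from 7.44, 6.67 and 7.41 CPM on day 3 to 5.26, 4.12 and 4.94 on day 10 (−0.59 ± 0.16, adjusted p = 0.00876). Its level rests on 103 to 184 counts per library. Rpl11 and the genes set beside shared sequence (Rps3, Rps12 and Rps18) were chosen after their values were seen. Of 6 proteins of the mRNA path of the 40S subunit, Rps23 and Rps26 were lower and Rps2, Rps3, Rpsa and Rps28 were not called, with a list median of −0.23. The call of Rps26 was kept under 14 of the 20 other settings and ended without day 3 replicate 1 or 3, day 7 replicate 2, or day 10 replicate 1 or 2 (edgeR adjusted p up to 0.155). Rpsa, the laminin receptor precursor and an assembly partner at the back of the 40S head, stood at 159, 149 and 168 CPM on day 3 and at 140, 152 and 140 on day 10, ranges that overlap (−0.14 ± 0.08, adjusted p = 0.137).

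Among 60S genes, Rpl28 and Rpl3 were lower on day 10 under each of the 20 other settings. Rpl28 (Entrez 19943, chromosome 7, 4792965 to 4794547), a surface protein of the 60S subunit, had the most negative log2 change of all tested members. It falls under the level set for named genes, with 106 to 240 counts per library, and was chosen after its values were seen. It stood at 9.43, 8.88 and 10.4 CPM on day 3, at 7.90, 6.21 and 5.70 on day 7, and at 5.26, 5.92 and 6.39 on day 10 (−0.70 ± 0.16, adjusted p = 0.0035). No library of days 7 or 10 reached the lowest of day 3.

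Rpl3 had the smallest spread of the genes that fell. It stood at 92.8, 93.9 and 96.2 CPM on day 3, at 72.8, 73.7 and 74.5 on day 7, and at 64.8, 70.5 and 71.3 on day 10. The 3 days did not overlap, and the log2 change was −0.36 ± 0.06 (adjusted p = 0.0013) by day 7 and −0.45 ± 0.06 (adjusted p = 0.000167) by day 10. Rpl32, a 60S protein, went from 285, 262 and 327 CPM to 183, 227 and 245 (−0.41 ± 0.12, adjusted p = 0.0112), a call that ended without day 3 replicate 3 (adjusted p = 0.0508, with a range of 0.0028 to 0.0508 over the other settings). Its near copy Rpl32l had 25.2% to 34.3% of the counts of Rpl32 in the 9 libraries and was not called (−0.39 ± 0.19, adjusted p = 0.11).

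Of the 4 genes of the P stalk, 1 was lower on day 10 and Rplp0, Rplp1 and Rpl12 were not called. Rplp0 stood at 725, 676 and 758 CPM on day 3 and at 587, 817 and 733 on day 10 (−0.01 ± 0.12, adjusted p = 0.923). Rplp1 stood at 474, 430 and 484 CPM on day 3 and at 469, 569 and 509 on day 10 (0.16 ± 0.09, adjusted p = 0.174). Both overlapped between the days. Rplp2, the partner of Rplp1 in the stalk, went from 164, 136 and 167 CPM to 130, 128 and 127 without overlap (−0.28 ± 0.08, adjusted p = 0.0139), though not below the threshold without day 3 replicate 1 (adjusted p = 0.0588) or day 3 replicate 3 (0.0593), in a range of 0.00214 to 0.0593 over the other settings. The difference between Rplp1 and Rplp2 was not tested.

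Rpl5 and Rpl11, which carry 5S ribosomal RNA into the 60S subunit and bind Mdm2 when unassembled, were called in different comparisons, a difference that was not tested. Rpl5 stood at 24.7, 17.6 and 22.9 CPM on day 3, at 17.9, 14.7 and 12.3 on day 7, and at 14.98, 17.4 and 20.9 on day 10. It was lower on day 7 (−0.54 ± 0.18, adjusted p = 0.0344) and not called on day 10 (−0.29 ± 0.18, adjusted p = 0.189). The day 7 call was kept under 16 of the 20 other settings and ended without day 3 replicate 1 or 3 or day 7 replicate 2 or 3 (edgeR adjusted p up to 0.127). Rpl11 was not called on day 7 and went from 8.09, 7.06 and 7.72 CPM on day 3 to 6.35, 5.12 and 5.93 on day 10 (−0.40 ± 0.15, adjusted p = 0.0475), a call kept under 10 of the 20 other settings and lost without any 1 library other than day 7 replicate 3 and day 10 replicate 1 (edgeR adjusted p up to 0.144). Of 8 proteins of the exit tunnel and its rim, Rpl17 and Rpl19 were lower and 6, among them Rpl4, Rpl23a, Rpl31 and Rpl39, were not called. The call of Rpl17 was kept under 8 of the 20 other settings (edgeR adjusted p up to 0.129) and ended without any 1 library other than day 10 replicate 2. That of Rpl19 was kept under 11 (up to 0.149) and ended without day 3 replicate 1 or 3, day 7 replicate 3, or any library of day 10. Of 11 genes mutated in Diamond-Blackfan anaemia, a failure of red cell production, 3 were lower, among them Rps26 and Rpl11, a share of 27.3% against 27.2% of all tested genes. All 11 had a log2 change below 0, as had 75 of the 81 members. None of the 4 X-linked core genes was called (Rps4x, Rpl10, Rpl36a and Rpl39).

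On day 7 the median of the members was lower by a smaller amount. Against day 3 it was −0.14, with 70 of 81 members below 0, and it was 0.00 over all tested genes. Called lower were 12 of 81 members (14.8%), and 0 were higher. That is below the background, where 19.0% of all tested genes were lower and 22.8% higher. Among the 12 called members were Rpl3, Rpl5, Rpl15, Rpl28, Rpl7l1, Rpl22l1, Rps6, Rps23 and Rps27a. The count was 3 without day 3 replicate 1, 4 without day 3 replicate 3 and 4 without day 7 replicate 3. Over all tested genes, calls in both directions were 6240 in the main fit and 4778, 4909 and 5316 in those fits, in that order. Rpl15, a 60S protein, went from 61.5, 66.0 and 60.7 CPM to 54.2, 54.5 and 47.0 (−0.27 ± 0.08, adjusted p = 0.0201) and was at 59.6, 62.8 and 56.9 on day 10, where it was not called against day 3. The day 7 call ended without day 3 replicate 2 or day 7 replicate 3 (edgeR adjusted p up to 0.0806). At the top of the order on day 7 stood Rps27 (0.18 ± 0.17), Rps16 (0.10 ± 0.13), Rps15 (0.10 ± 0.10) and Rplp1 (0.09 ± 0.09), none of them called. The comparisons of days 7 and 10 with day 3 share the libraries of day 3.

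From day 7 to day 10, edgeR called 0 of 81 members, and 4 had an unadjusted p under 0.05. Of all tested genes 4.10% were lower and 4.41% higher in this step. The median of the members was −0.05, and the changes ran from −0.38 for Rpl13 to 0.26 for Rpl35a. Rps16, a 40S protein, went from 72.1, 80.4 and 77.03 CPM to 56.9, 57.0 and 67.8, without overlap (−0.34 ± 0.13, adjusted p = 0.14). Rps29, a small zinc-binding 40S protein, went from 9.38, 11.9 and 10.8 CPM to 7.49, 8.65 and 8.999 (−0.35 ± 0.15, adjusted p = 0.195). Rpl35a, a 60S protein, stood at 23.1, 27.2 and 21.4 CPM on day 7 and at 25.3, 30.4 and 29.9 on day 10 (0.26 ± 0.12, adjusted p = 0.206). DESeq2 also called 0, and without day 10 replicate 3 edgeR called 1, Rps27l. Rps16 was likewise called under 1 of the 20 other settings (edgeR adjusted p from 0.0176 to 0.337 over them).

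Day 7 was set against the mean of days 3 and 10 to see whether any member dipped or peaked between them. EdgeR called 0 of 81, with 5 at an unadjusted p under 0.05, where 2.06% of all tested genes were lower on day 7 and 5.96% higher. DESeq2 called 1, Rpl15, with a log2 difference of −0.25 and an adjusted p of 0.0282, in a range of 0.0282 to 0.239 over the other settings. Rps28, a small 40S protein near the mRNA exit, stood at 11.4, 8.91 and 12.1 CPM on day 3, 10.8, 6.95 and 7.06 on day 7, and 8.78, 8.77 and 8.999 on day 10, and was not called.

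Paralogs differed widely in level. Rpl10l, known from testis, had 0 counts in all 9 libraries, which allows up to 3 counts in each or 0.0987 to 0.149 CPM. Rpl3l, known from striated muscle, and Rpl39l, known from testis, had 0 to 2 counts per library. These 3 did not pass the filter. The paralogs that were read in numbers were Rpl22l1, Rpl7l1 and Rps27l.

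Rpl22l1 (Entrez 68028, chromosome 3, 28805508 to 28807424), the paralog of the RNA-binding 60S protein Rpl22, had the largest fall of the paralogs. It stood at 39.2, 44.0 and 37.7 CPM on day 3, at 29.9, 24.6 and 23.9 on day 7, and at 25.8, 30.3 and 19.8 on day 10. Every later library was below day 3, and the log2 change was −0.62 ± 0.15 by day 7 (adjusted p = 0.00811) and −0.67 ± 0.15 by day 10 (adjusted p = 0.00355), called under each of the 20 other settings in both. Rpl22 stood at 265, 245 and 263 CPM on day 3 and at 207, 235 and 241 on day 10 (−0.18 ± 0.08, adjusted p = 0.0765). Counts of Rpl22l1 came to 14.8%, 18.0% and 14.3% of those of Rpl22 on day 3, to 12.6%, 11.3% and 11.1% on day 7, and to 12.5%, 12.9% and 8.22% on day 10. Day 3 was above both later days in every library, with an exact two-sided permutation p of 0.1 for each, the smallest that 3 against 3 allows, and 0.25 after Benjamini-Hochberg adjustment over 10 such tests.

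Rpl7l1, a relative of Rpl7 that acts in 60S assembly, stood at 117, 119 and 125 CPM on day 3 and at 84.4, 101 and 94.2 on day 10 (−0.37 ± 0.08, adjusted p = 0.0038). Rpl7 stood at 333, 327 and 339 CPM and at 257, 330 and 348 (−0.10 ± 0.11, adjusted p = 0.472). The paralog came to 35.1%, 36.5% and 36.9% of Rpl7 counts on day 3 and to 32.9%, 30.7% and 27.1% on day 10, without overlap, with the same exact permutation p of 0.1 and adjusted 0.25.

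Rps27l, a paralog of Rps27 that is a known target of p53, was the member with the most positive change. It stood at 36.9, 35.1 and 37.6 CPM on day 3, at 37.1, 39.1 and 34.6 on day 7, and at 48.2, 43.7 and 36.1 on day 10 (0.22 ± 0.11, adjusted p = 0.0956). Day 10 replicate 3 lay among the day 3 libraries, and without it the change was 0.33 with an adjusted p of 0.00685, in a range of 0.00685 to 0.368 over the other settings. Against Rps27rt, whose row holds most of the counts of the Rps27 sequence, Rps27l came to 61.2%, 70.1% and 58.4% on day 3 and to 99.5%, 73.4% and 46.6% on day 10 (exact permutation p = 0.7, adjusted 0.875). Rpl10 and Rps4x, the X-linked partners of other paralogs, had log2 changes of 0.03 ± 0.10 and −0.05 ± 0.15.

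**Figure D4:**
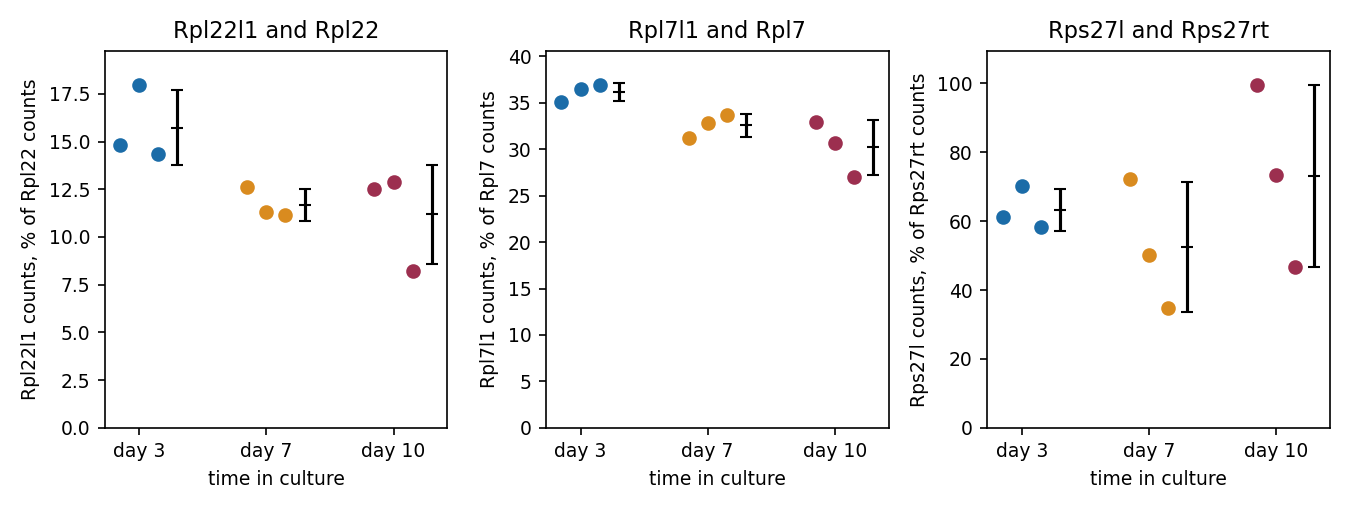
Counts of 3 paralogs as a percent of the counts of their partner gene in each library, with the mean ± SD of each day (n = 3). Rpl22l1 and Rpl7l1 are above both later days in all 3 libraries of day 3, while the days overlap for Rps27l against Rps27rt.

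Changes were also counted by start-site sequence, with no test. Of 30 tested members with a TOP tract, 11 were lower on day 10, with a median of −0.22, and of 31 tested members with a start region and no tract, 5 were lower, with a median of −0.18. Over all tested genes 27.2% were called lower. A missing tract concerns the annotated starts only. With and without CCGGAAG, 6 of 25 and 10 of 36 were lower, with medians of −0.16 and −0.23. These are counts over genes of 1 family in the same libraries.

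Genes that act in building ribosomes had lower medians than the ribosomal proteins. Of 57 ribosome assembly factors, 44 were lower on day 10, 2 were higher and 11 were not called, with a median of −0.50. Dkc1, the pseudouridine synthase of small nucleolar particles, went from 86.0 ± 2.43 to 38.4 ± 3.02 CPM (−1.16 ± 0.11, adjusted p = 1.73e-05). Imp3, of the 40S processing complex, rose from 58.0 ± 3.11 to 119 ± 7.504 CPM (1.03 ± 0.10, adjusted p = 1.56e-05). Of 16 genes listed for the synthesis of ribosomal RNA, 13 were tested and 10 were lower, with a median of −0.47. Polr1b, a subunit of RNA polymerase I, went from 42.9 ± 0.791 to 21.4 ± 0.463 CPM (−1.01 ± 0.10, adjusted p = 1.73e-05). No set test was made, and the difference between these lists and the ribosomal proteins was not tested.

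Other lists of translation had medians near that of the members. Of 16 translation factors known to carry a TOP tract, 4 were lower and 0 higher, with a median of −0.15. Btf3, of the nascent polypeptide complex, had the largest of these falls (−0.36 ± 0.09, adjusted p = 0.00685), and Eef1a1, the main elongation factor, was not called (−0.15 ± 0.11, adjusted p = 0.28). Fau went from 13.2 ± 0.682 to 12 ± 0.649 CPM (−0.14 ± 0.17) and was not called. Of 77 mitochondrial ribosomal proteins tested, which form a separate ribosome, 22 were lower and 5 higher, with a median of −0.15. Mrpl19 had the largest called fall (−0.71 ± 0.09, adjusted p = 7.65e-05) and Mrpl52 the largest called rise (0.56 ± 0.13, adjusted p = 0.00375).

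Of 14 growth regulators, 7 were lower on day 10, 2 higher and 5 not called, and the 9 called became 5 without day 3 replicate 2 and day 10 replicate 3 together. Myc, which activates genes of ribosome production, went from 59.6 ± 2.29 to 21.01 ± 2.17 CPM (−1.50 ± 0.11, adjusted p = 2.79e-06), and Mycn from 24.3 ± 6.38 to 4.89 ± 1.80 (−2.31 ± 0.27, adjusted p = 8.42e-05). Larp1, which binds TOP mRNAs, went from 190 ± 4.56 to 164 ± 5.09 CPM (−0.21 ± 0.06, adjusted p = 0.0153). Eif4ebp1, which restrains cap-dependent translation when mTOR is quiet, rose from 56.6 ± 4.73 to 95.7 ± 17.2 CPM (0.76 ± 0.13, adjusted p = 0.000803).

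**Figure D5:**
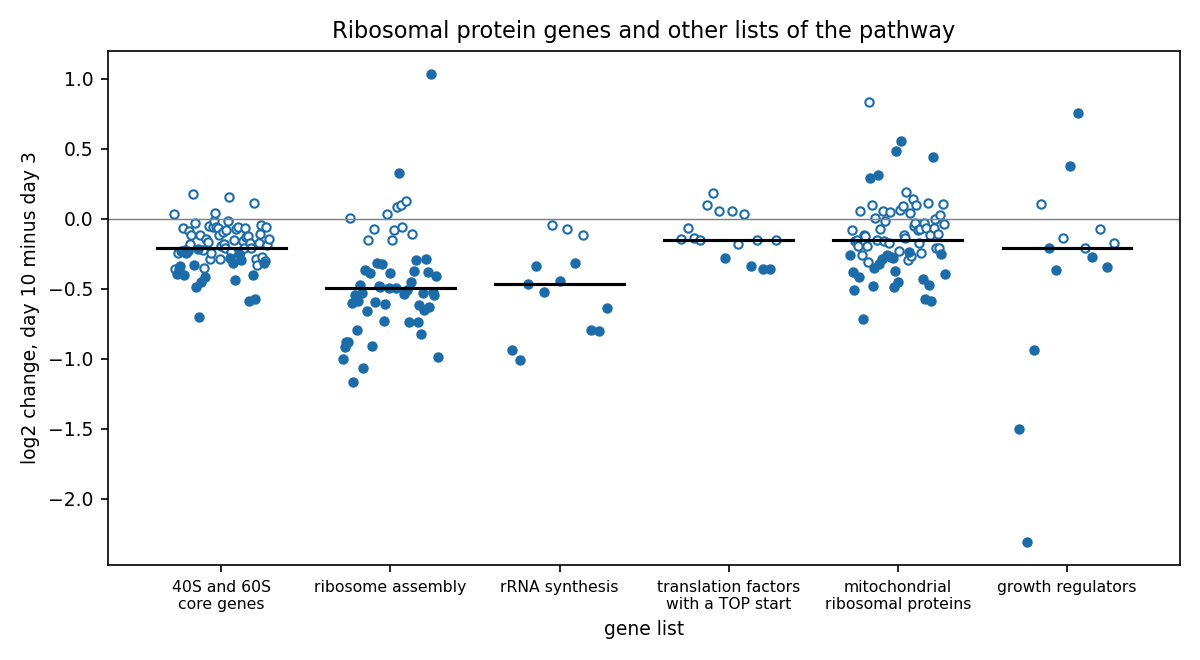
Log2 change from day 3 to day 10 of the 77 core ribosomal protein genes and of 5 other lists. Filled points have an adjusted p under 0.05 and black lines are list medians. The core genes lie between −0.70 and 0.18, while assembly factors reach −1.16 and Mycn −2.31.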

How the data were processed

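The values are raw counts for each Entrez gene ID in 9 poly(A) RNA libraries, in a table that the authors deposited without normalisation. Per the submitters' processing notes, the build was mm10 and featureCounts did the counting. Not given in the sources used here are aligner, annotation, strand setting and how reads that fit several places were treated. Columns were matched to samples by name.

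Genes kept by filterByExpr (14940 of 27179) were scaled by TMM and fitted with edgeR 4.0.16 in R 4.3.3 (robust quasi-likelihood, all 9 libraries, day as the only factor; Benjamini-Hochberg threshold 0.05); DESeq2 1.42.0 was an alternative. The scripts were tested on simulated data. Replicates of a day differed by a chi-square of at least 8.05 per degree of freedom. Lengths and shared stretches came from the main GENCODE M21 transcript (CCDS, then APPRIS rank, then the shortest) of 83 members. Ratios used exact permutation tests in scipy 1.17.1. Same-numbered libraries were not taken as pairs.

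Members, lists and alternatives were chosen with earlier results of these data known. Named members were Rpsa, Rplp0, Rplp1, Rplp2, Rps6, Rpl3, the paralogs and partners, the 4 largest and 4 smallest changes per comparison with at least 10 CPM, the 5 highest and 3 lowest core genes per kilobase, and those below the filter; other lists gave their largest called change each way. A floor of 3 counts was used for a count of 0, covering counting error only. Some results are not reported here.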

Additional observations from a re-analysis of the deposited data

How the results depend on the processing

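The medians of the members kept their sign under all settings tried, and no called member changed direction; over 6399 single-member values recomputed, 124 calls were lost and 113 gained. Members called on day 10 against day 3 (23) were 35 with library size alone, where the median was −0.31 in place of −0.21. The median over all tested genes was −0.09 in that setting, in place of 0.00. With no filter beyond 1 count 15 members were called, and leaving out 1 library gave 9 to 28. For day 7 against day 3 (12), leaving out 1 library gave 3 to 15. For day 10 against day 7 (0) it gave 0 to 1, and for day 7 against the mean of days 3 and 10 (0) it gave 0 to 2, with 1 under upper-quartile factors and 1 under the DESeq2 Wald test. Members called higher were 0 to 1 without 1 library, for day 10 against day 7 and against day 3. Chosen after seeing the data, leaving out day 3 replicate 2 and day 10 replicate 3 together gave 35 calls, a median of −0.29 and 1 rise for day 10 against day 3, 1 call for day 10 against day 7, and 5 growth regulators in place of 9. Stretches of 36 and 100 bases gave a rho of −0.39 and −0.65 between level and shared sequence. The cause was not tested for any of these.

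With the replicate number as a block, members called were 13, 0 and 21 for days 7 against 3, 10 against 7 and 10 against 3, and 1 for day 7 against the mean of days 3 and 10. Same-numbered libraries correlated at −0.07 to 0.43, above 0.1 in 5 of 9 pairs, and others at −0.36 to 0.22, above 0.1 in 2 of 18; 6 of 9 libraries correlated best with their own number. The submitters' sample codes also run in sequence through the days within each replicate number. Both are hints of shared sets. Not every pair passed 0.1, though, and no label says that a number marks a shared batch, so the block was not the main fit. Depth limits the lowest genes: Rpl39, with 18 to 32 counts per library, had an SE of 0.29 on the log2 scale.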
